A study of Mus musculus with 24 samples.

Results

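The subunit genes of oxidative phosphorylation were examined in 24 libraries of sorted mouse CD4 T cells. They were taken as the mapped mouse symbols with the usual names of complex I to V subunits (Nduf, Sdh, Uqcr, Cox4 to Cox8 and Atp5) and the protein genes of mitochondrial DNA (prefix mt-), pseudogenes left out, with a mean normalised read count of at least 10 over the 24 libraries. Of the 35612 genes in the table, 91 met both conditions, and 10 more had such a symbol but a lower mean. The 91 were 79 nuclear and 12 mitochondrial genes. Their level over all libraries chose them, so that level is given only as a description. A gene near the mean of 10 can enter through the groups where it is high, and Cox6a2 did so. It is therefore described without a test, and counts are also given for the other 90 genes where it was among those called.

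Poly(A) RNA of sorted cells was amplified (SMARTer) and sequenced in bulk, with 1 library per pool of 3 mice. The mice were C57BL/6 males aged 5 months with the Foxp3Thy1.1 reporter. In this line a surface Thy1.1 marks cells that express Foxp3, the transcription factor of regulatory T cells. CD4 cells were enriched first. The sort then kept live CD45+ cells that were TCRβ+, CD4+ and CD8α-, without NK-1.1 or binding of the CD1d tetramer. Foxp3+ cells of that gate are called Treg and Foxp3- cells Tconv (conventional T cells). The sources were the spleen, the blood (its mononuclear cells, PBMC), the liver and the lymph node that drains it (LDLN). Each of the 8 combinations had 3 pools. All groups carry the reporter, and no group was treated. Whether equally numbered pools shared mice is not stated. The p-values below measure only how far these pools spread, part of which may be technical.

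Oxidative phosphorylation makes ATP in the inner mitochondrial membrane. Complexes I and II pass electrons from NADH and succinate to ubiquinone, complex III passes them to cytochrome c, complex IV reduces oxygen, and complex V, the ATP synthase, uses the proton gradient that complexes I, III and IV build. Complex II is encoded entirely in the nucleus, while the other complexes also need subunits transcribed from mitochondrial DNA as long polycistronic RNAs that are cut into single transcripts, so both genomes have to supply their parts. In T cells, quiescent and regulatory cells are known to rely more on oxidative metabolism, and activated effector cells turn up glycolysis beside it.

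Complex I had 42 genes (36 nuclear, 6 mitochondrial), complex II 4, complex III 9 (8 and 1), complex IV 17 (14 and 3) and complex V 19 (17 and 2). Cox6b2, a complex IV subunit mainly of testis, was the member with the lowest mean, 11.2. Cox7a1, the heart and muscle isoform, lay just outside with 8.95. All 91 passed the filter of the tests, which asked for at least 10 normalised reads in at least 3 libraries. Cox6a2, the other heart and muscle isoform among the members, reached 10 in only 10 of the 24 libraries. Its mean was 19.2 over all libraries but 8.27 outside liver, and 7.73 in Treg against 30.6 in Tconv. Apart from it, Cox6b2 was the only member below 10 in any library, with 13 libraries at 10 or more.

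Per kilobase of exon, with all annotated exons of a gene joined, the mitochondrial genes stood far above the nuclear ones. The joined length can exceed that of the main transcript for nuclear genes with several transcripts, which lowers their level per kb. The median mean level was 16321 normalised reads per kb for the 6 mitochondrial complex I genes and 1368 for the 36 nuclear ones. In complex IV it was 78377 for the 3 catalytic core genes mt-Co1, mt-Co2 and mt-Co3 and 2544 for the 14 nuclear genes. The highest mitochondrial level was that of mt-Atp6, a membrane subunit of the ATP synthase proton channel, with 147357 per kb, and the lowest that of mt-Nd6, the only member on the other DNA strand, with 8806. Among nuclear genes Cox4i1, the common isoform of a regulatory complex IV subunit, led complex IV with 9447 per kb, Uqcrh, the hinge protein beside cytochrome c1, led complex III with 7866, Atp5a1, the alpha subunit of the catalytic head, led complex V with 5770, and Ndufa6 led complex I with 4831.

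The mitochondrial transcripts overlap in places, which bears on how reads are assigned to genes. On chromosome M of GRCm38, + strand, the end of mt-Atp8 and the start of mt-Atp6 share 43 bases (7927 to 7969), and the end of mt-Nd4l and the start of mt-Nd4 share 7 (10167 to 10173). The stretches are shown from the GENCODE transcripts at chrM:7897-7999 and chrM:10137-10203, with the shared bases in capitals and 30 bases on either side.
mt-Atp8 and mt-Atp6: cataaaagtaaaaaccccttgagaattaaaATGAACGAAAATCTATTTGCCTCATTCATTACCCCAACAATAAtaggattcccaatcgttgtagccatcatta
mt-Nd4l and mt-Nd4: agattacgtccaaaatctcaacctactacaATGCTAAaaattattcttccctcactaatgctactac
mt-Nd4l, which is the thirteenth protein gene of mitochondrial DNA, had a mean of 0.0904 normalised reads against 29492 for mt-Nd4 and was therefore no member. mt-Atp8 kept a mean level of 41017 per kb beside mt-Atp6. Overlaps not shown join mt-Atp6 with mt-Co3, and mt-Nd5 with mt-Nd6 on the opposite strand. Reads of mt-Nd5 and mt-Nd6 could be misassigned where strand was not used.

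The libraries held 17523927 to 25398037 reads. Foxp3 ran from 1402 to 2227 normalised reads in the 12 Treg libraries. In 7 of the 12 Tconv libraries it was 13.6 to 30.5, but in 5 (Liver Tconv 1 and 3, LDLN Tconv 3, PBMC Tconv 1 and Spleen Tconv 3) it was 305.3 to 627.4, so that the counts of called subunit genes are also given without these 5. Cd4 was 10356 to 27946 in every library, and Cd8a was 212.8 in Spleen Treg 1, 477.4 in Liver Tconv 2 and at most 64.5 elsewhere. Of the markers of NK cells 5 of 9 were lower in Treg on average (19.9% of all genes were), and of those of B cells and macrophages 1 of 8 and 1 of 9 were higher (19.7% of all genes were). Of 8 cell cycle genes 8 were higher in Treg than in Tconv in liver, PBMC and spleen (10.2%, 10.2% and 10.1% of all genes were) and none in LDLN (7.83%). Leaving out the 5 Tconv libraries with raised Foxp3 made these 6 in liver and PBMC and 8 in spleen, and made the marker counts 7 of 9 lower for NK cells and 0 for B cells and macrophages. The summed level of the cell cycle genes was 13187 to 23388 in Liver Treg against 2680 to 6034 in Liver Tconv. Immediate early genes, which respond to tissue dissociation among other stimuli, summed to 42888 to 43621 in Liver Treg, 41793 to 55194 in Spleen Treg, 3645 to 4516 in LDLN Treg and 1554 to 2013 in PBMC Treg. Summed markers of other cells also differed between tissues and libraries. Those of B cells were 9259 to 22940 in Liver Treg, 1515 to 4364 in LDLN Treg, 10831 to 15958 in PBMC Treg and 7407 to 20373 in Spleen Treg. In Spleen Tconv they were 3516 to 5336, below Spleen Treg, and in the other tissues the B cell sums of Treg and Tconv overlapped. Summed macrophage markers were higher in Treg without overlap in PBMC (2285 to 2725 against 370.2 to 656.8). The same held in spleen (2743 to 4752 against 1080 to 1203), and in liver and LDLN these sums overlapped. Within Liver Tconv, macrophage markers ran from 242.3 to 10759, NK cell markers from 1909 to 11364 and erythroid markers from 5781 to 118107. The part of these programmes and cells in the differences below was not tested. In bulk RNA, fewer cells of a type and less RNA per cell cannot be told apart.

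Together the 12 mitochondrial messenger RNAs took 2.27% to 3.61% of all normalised counts of a library, and the 79 nuclear genes 0.696% to 0.900%. The mitochondrial share was 2.79%, 2.72% and 2.36% in Liver Treg and 2.76%, 2.92% and 2.83% in Liver Tconv. It was 2.96%, 2.69% and 2.56% in LDLN Treg against 2.90%, 2.87% and 2.75% in LDLN Tconv, and 2.65%, 2.72% and 2.51% in PBMC Treg against 2.55%, 3.61% and 2.74% in PBMC Tconv. In spleen it was 2.27%, 2.44% and 2.43% in Treg against 2.82%, 2.73% and 2.76% in Tconv. Only in spleen did the Treg libraries all lie below the Tconv libraries. PBMC Tconv 2 had the highest share of both the mitochondrial (3.61%) and the nuclear (0.900%) genes.

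The nuclear share overlapped between Treg and Tconv in liver, LDLN, PBMC and spleen, as the plot of shares shows. The summed mitochondrial count divided by the summed nuclear count was 2.84 to 3.08 in Spleen Treg and 3.42 to 4.05 in Spleen Tconv, with no overlap. It was 2.78 to 3.63 and 3.37 to 3.84 in liver, 3.00 to 3.48 and 3.30 to 3.44 in LDLN, and 3.04 to 3.56 and 3.31 to 4.01 in PBMC (Treg first), and in these tissues the ranges overlapped.

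**Figure D1:**
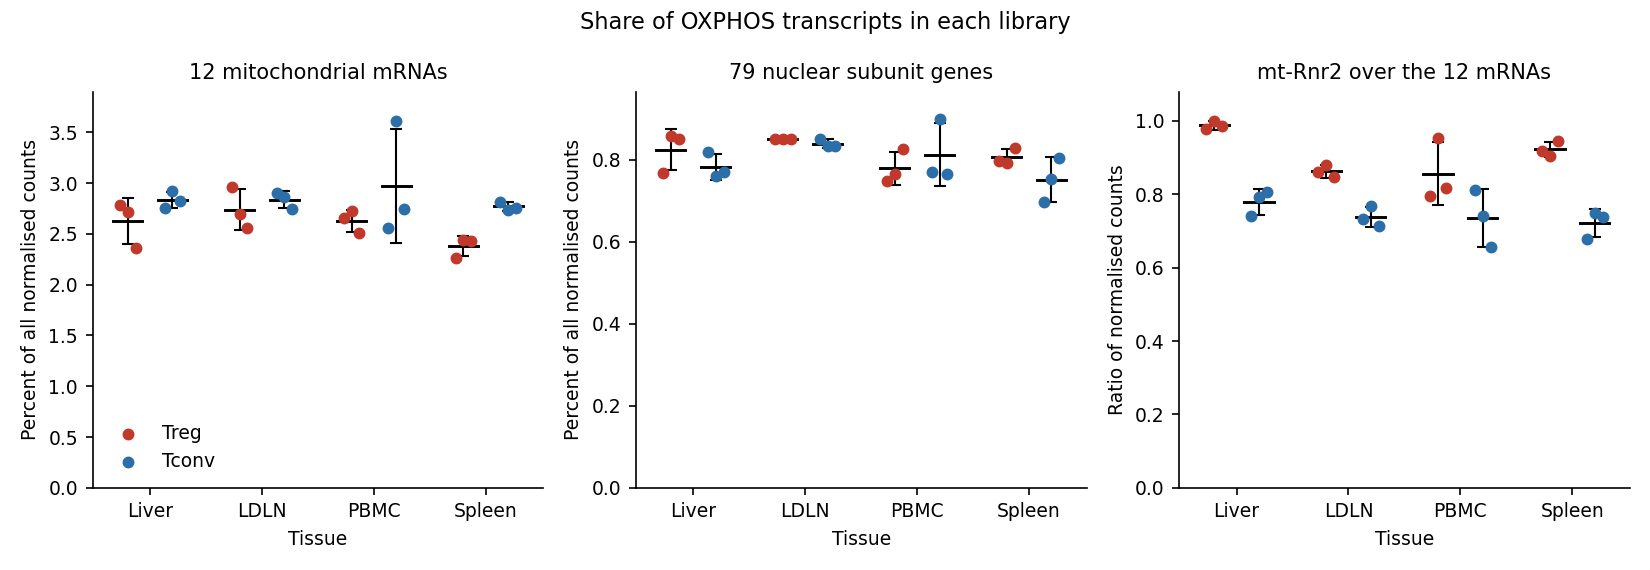
Percent of all normalised counts taken by the 12 mitochondrial messenger RNAs (left) and by the 79 nuclear subunit genes (middle), and the ratio of the 16S ribosomal RNA mt-Rnr2 to the 12 messenger RNAs (right), per library by tissue. Points are libraries (red Treg, blue Tconv) and bars are means ± SD, n = 3. Spleen Treg lie below Spleen Tconv on the left, and the ratio on the right is higher in Treg without overlap in liver, LDLN and spleen.

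Treg and Tconv were compared in each tissue and, as the main contrast, averaged over the 4 tissues. On average 29 of the 91 genes (31.9%) passed an adjusted p of 0.05 (limma, Benjamini-Hochberg over 18576 genes), 10 higher and 19 lower in Treg. Of all genes 39.6% passed, 19.7% higher and 19.9% lower. Without Cox6a2, 28 of 90 were called, 10 higher and 18 lower. The share of subunit genes called was thus below that of all genes, and their differences were small. The median absolute log2 difference was 0.0969 for the 91 and 0.219 for all genes, and the 95% confidence interval lay within ± 0.5 log2 for 89 of the 91 (97.8%) against 49.8% of all genes. The 2 exceptions were Cox6a2 and Cox6b2, both with low counts. All genes were not matched to the subunit genes for level in these contrasts.

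The genomes differed in direction. Of the 12 mitochondrial genes 7 were lower in Treg and none higher, with a median log2 difference of -0.18. Of the 79 nuclear genes 10 were higher and 12 lower, with a median of 0.00, where the median over all genes was 0.01. The split of higher and lower calls depended on the scaling: scaled to the total of all genes in a library it was 17 higher and 9 lower, and scaled to the total of nuclear genes 16 and 9. Without the 5 Tconv libraries with raised Foxp3, 18 genes were called, 6 higher and 12 lower.

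**Figure D2:**
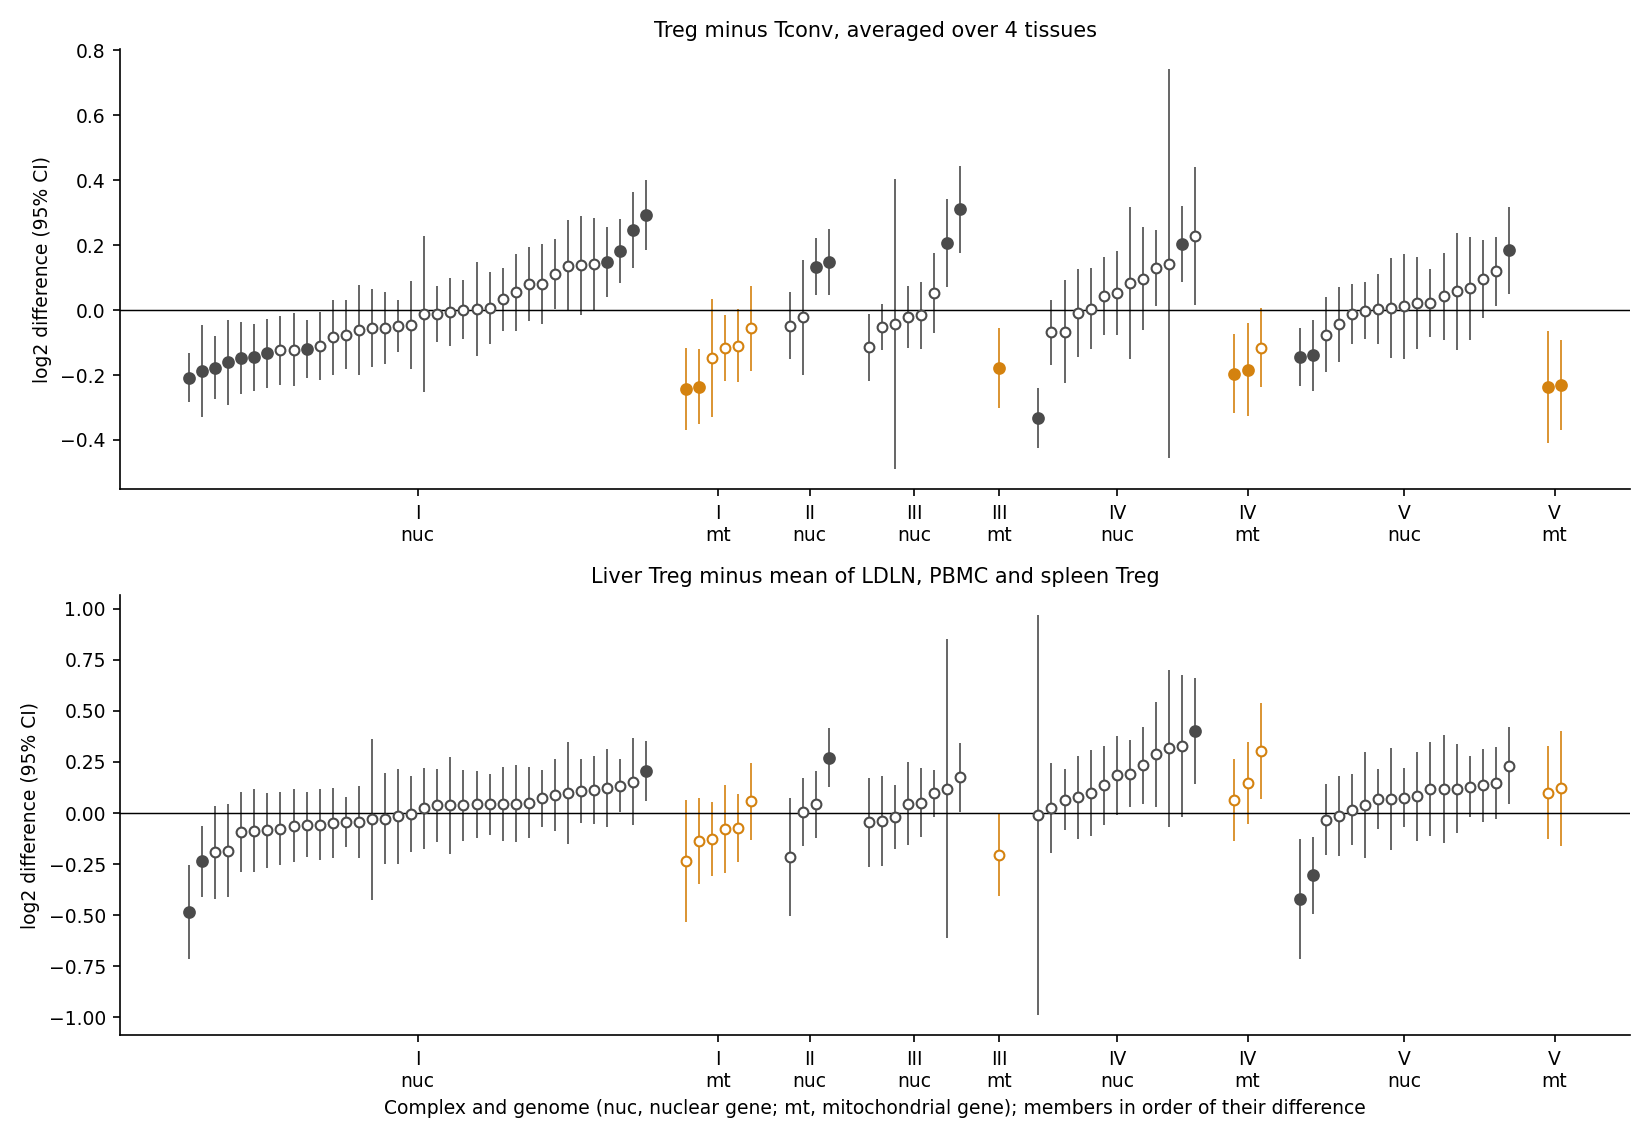
Log2 difference with its 95% confidence interval for each subunit gene, grouped by complex and genome (grey nuclear, orange mitochondrial). The top panel is Treg minus Tconv averaged over 4 tissues, the bottom panel Liver Treg minus the mean of LDLN, PBMC and spleen Treg, and filled points passed an adjusted p of 0.05. Cox6a2 is not drawn in either panel (-2.08 and 3.48). In the top panel all 12 orange points lie below 0, and the nuclear points spread to both sides.

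Single tissues gave few calls. In liver 3 subunit genes were higher in Treg and 1 lower, where 20.5% of all genes passed (10.2% higher, 10.3% lower). LDLN had none higher and 1 lower (13.8% of all genes, 7.83% higher and 5.99% lower). PBMC had 2 higher and 5 lower, 1 of the latter Cox6a2 (18.2% of all genes, with 10.2% higher and 7.95% lower), and spleen 2 higher and 4 lower (18.8%, with 10.1% higher and 8.75% lower). In each tissue the subunit genes were called less often than genes at large, a difference that was not tested. Without the 5 Tconv libraries with raised Foxp3 the counts were 3 in spleen, 5 in PBMC and 0 in liver and LDLN. With the pool number as a block within tissue, 2 genes were called in liver, 1 higher and 1 lower. Leaving out Liver Treg 2 or Liver Tconv 3 left 1 call in liver, leaving out PBMC Treg 2 left 3 and PBMC Treg 3 left 4 in PBMC, and leaving out any spleen library but Spleen Tconv 2 left 2 or 3 in spleen. The LDLN call was lost without any of its libraries except LDLN Tconv 2. No library left out moved the averaged count by over 1.5 times.

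Of the mitochondrial messenger RNAs 7 of 12 were called lower in Treg on average, each by 0.24 log2 or less, and 5 did not pass. mt-Nd1, a membrane subunit of complex I next to the quinone site (chromosome M, 2751 to 3707), had normalised read counts of 28388, 27450 and 27291 in Liver Treg and 33016, 33241 and 35526 in Liver Tconv. In spleen the counts were 32169, 33597 and 30973 in Treg and 44245, 38877 and 39100 in Tconv. Treg lay below Tconv without overlap in both tissues. In LDLN (32014, 31528 and 26665 against 33722, 34050 and 30870) and PBMC (33570, 27379 and 27270 against 29122, 44664 and 29960) the libraries overlapped. The averaged log2 difference of mt-Nd1 was -0.24 ± 0.0615 (SE, adjusted p = 0.00293).

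mt-Nd2, another proton-pumping membrane subunit of complex I, fell by the same 0.24 log2 (SE 0.0554, adjusted p = 0.00152). In PBMC its counts were 15168, 15034 and 14579 in Treg and 16863, 24295 and 16952 in Tconv. These did not overlap, and mt-Nd2 was the only mitochondrial gene called in blood (-0.35 ± 0.111, adjusted p = 0.0284). The PBMC call was lost without PBMC Tconv 2, where the difference was -0.18, and without PBMC Treg 2 (-0.36) or PBMC Treg 3 (-0.34).

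The other genes called on average were both ATP synthase genes, mt-Atp8 (-0.24 ± 0.0829, adjusted p = 0.0273) and mt-Atp6 (-0.23 ± 0.0672, adjusted p = 0.0085), the complex IV core genes mt-Co3 (-0.20 ± 0.0588, adjusted p = 0.0107) and mt-Co1 (-0.18 ± 0.0691, adjusted p = 0.0384), and mt-Cytb, the cytochrome b of complex III (-0.18 ± 0.0592, adjusted p = 0.0192). mt-Co2 (-0.12), mt-Nd3 (-0.15), mt-Nd4 (-0.11), mt-Nd5 (-0.12) and mt-Nd6 (-0.06) did not pass. The call of mt-Atp8 was lost without LDLN Treg 3 (-0.21) or PBMC Treg 2 (-0.22), and that of mt-Co1 without any of 13 of the 24 libraries, with values between -0.19 and -0.15.

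The sign was negative in all 4 tissues for 9 of the 12 genes (75%), against 22.1% of all genes. The exceptions were mt-Nd5, mt-Nd6 and mt-Cytb, each positive in 1 tissue at 0.04 or less. The median of the 12 differences was -0.11 in LDLN, -0.19 in liver, -0.21 in PBMC and -0.26 in spleen. In spleen 10 of the 12 did not overlap between Treg and Tconv, where 34.4% of all genes did not. In spleen mt-Atp6 (-0.39 ± 0.134, adjusted p = 0.044) and mt-Cytb (-0.34 ± 0.118, adjusted p = 0.0495) were called, and leaving out any 1 of the 6 spleen libraries ended either call. In liver 5 of the 12 did not overlap (35.1% of all genes), in PBMC 1 (29.8%) and in LDLN 0 (36%).

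These directions depended on the scaling. Under quantile scaling, which gives every library the same set of values and so compares abundant genes by rank, 3 of the 12 averaged differences turned positive, the median was -0.03 and 1 gene was called. By tissue, 7 of the 12 were positive under it in LDLN, 5 in PBMC and 4 each in liver and spleen. Scaled to the total of all genes the 12 averaged differences remained negative with a median of -0.14, and 5 were called. Without the Tconv libraries with raised Foxp3 the median was -0.25 and 7 were called.

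**Figure D3:**
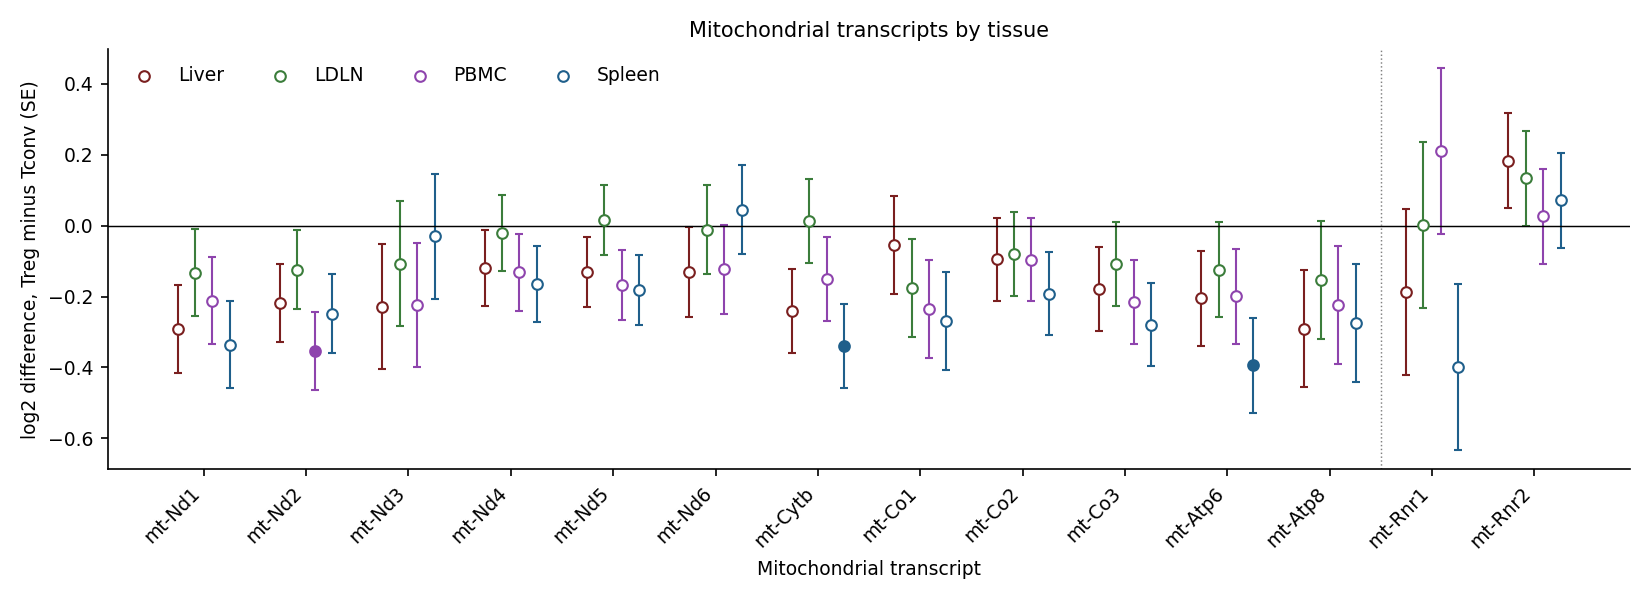
Log2 difference Treg minus Tconv (± SE) of the 12 mitochondrial messenger RNAs and of the ribosomal RNAs mt-Rnr1 and mt-Rnr2 (right of the dotted line) in liver, LDLN, PBMC and spleen. Filled points passed an adjusted p of 0.05. Most messenger RNA points lie below 0 and all 4 mt-Rnr2 points above it.

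The ribosomal RNAs of the same DNA were not called. mt-Rnr2, the 16S RNA, had averaged and single-tissue differences of 0.10 ± 0.0672 overall (adjusted p = 0.244) and 0.18, 0.13, 0.03 and 0.07 in liver, LDLN, PBMC and spleen, none of which passed. mt-Rnr1, the 12S RNA, was at -0.09 ± 0.117 (adjusted p = 0.569). The count of mt-Rnr2 divided by the sum of the 12 messenger RNAs was 0.977, 1.00 and 0.985 in Liver Treg and 0.740, 0.793 and 0.807 in Liver Tconv. It was 0.860, 0.881 and 0.847 against 0.732, 0.767 and 0.713 in LDLN, and 0.917, 0.904 and 0.945 against 0.678, 0.748 and 0.737 in spleen. In these 3 tissues every Treg library lay above every Tconv library. In PBMC the ratios overlapped, with 0.796, 0.955 and 0.817 in Treg and 0.811, 0.740 and 0.655 in Tconv. Ribosomal RNA enters a poly(A) library through its short tail or internal priming, so this ratio is a property of the libraries and no count of ribosomes.

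Of the 36 nuclear genes of complex I, 4 were higher and 8 lower in Treg on average, with a median log2 difference of -0.03. The counts were 3 and 2 without the 5 Tconv libraries with raised Foxp3. Ndufs1 (chromosome 1, 63143596 to 63176833), the largest subunit and a carrier of iron-sulfur clusters in the NADH-oxidising arm, was lower. Its counts were 2192, 2156 and 2412 in Liver Treg against 2623, 2373 and 2676 in Liver Tconv, and 2537, 2543 and 2515 against 2808, 2743 and 2703 in LDLN. In PBMC they were 2274, 1942 and 2268 against 2647, 2595 and 2677, and in spleen 2209, 2415 and 2274 against 2709, 2663 and 2762. The groups overlapped in liver and in no other tissue. Ndufs1 fell by 0.21 log2 (SE 0.0361, adjusted p = 6.92e-05). It passed in PBMC (-0.29 ± 0.0723, adjusted p = 0.00616) and spleen (-0.24 ± 0.0723, adjusted p = 0.0236), losing the first call without PBMC Treg 2 (-0.22) and the second without Spleen Tconv 3, Spleen Treg 1 or Spleen Treg 3 (-0.21 to -0.23). The exons of Ndufs1 overlap those of Eef1b2, so reads of the 2 genes could be mixed where strand was not used.

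Ndufa10, an accessory subunit of the membrane arm (chromosome 1, 92439010 to 92473860), was also lower, with 1488, 1496 and 1548 in LDLN Treg against 1923, 1697 and 1907 in LDLN Tconv. In PBMC it was 1563, 1620 and 1673 against 1831, 1979 and 2092. Neither tissue showed an overlap, while liver and spleen did. The averaged difference was -0.18 ± 0.0467 (adjusted p = 0.004). Ndufa10 was the only subunit gene called in LDLN (-0.28 ± 0.0935, adjusted p = 0.0464), a call that was lost under 11 of 20 alternatives, and it also passed in PBMC (-0.28, adjusted p = 0.0411), a call lost under 10 of 20.

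Ndufb7, a small subunit facing the intermembrane space (chromosome 8, 83566671 to 83571626), went the other way. It had 1498, 1855 and 1758 in Liver Treg against 1435, 1350 and 1194 in Liver Tconv, and 1741, 1739 and 1676 in Spleen Treg against 1384, 1387 and 1459 in Spleen Tconv. LDLN gave 1577, 1780 and 1587 against 1510, 1449 and 1368. Treg lay above Tconv without overlap in these 3 tissues, and in PBMC the values 1616, 1519 and 1658 against 1184, 1523 and 1127 overlapped by 1 library. Ndufb7 rose by 0.29 ± 0.0514 log2 (adjusted p = 8.01e-05), by 0.36 ± 0.103 in liver (adjusted p = 0.0154) and by 0.33 ± 0.103 in PBMC (adjusted p = 0.0263). The liver call was lost without Liver Tconv 3 or Liver Treg 2 (0.29). With the pool number as a block within tissue it kept its liver call (adjusted p = 0.03). It lost the PBMC call without any PBMC library but PBMC Tconv 2 and PBMC Treg 2 (0.25 to 0.33).

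Ndufa13, also known as GRIM-19 and needed for assembly of the complex, rose by 0.25 ± 0.0561 (adjusted p = 0.00114). Treg lay above Tconv without overlap in liver, LDLN and spleen, for example at 2478, 2837 and 2717 against 2318, 2141 and 2208 in liver. Ndufb2 (-0.19 ± 0.0679, adjusted p = 0.0328) and Ndufa2 (-0.16 ± 0.0629, adjusted p = 0.0478) were called lower, but Ndufb2 lost its call without any of 9 libraries and Ndufa2 without any of 19, and both lost it when scaled to the total of all genes. The exons of Ndufb2 overlap those of Braf, which is more abundant. The remaining calls of complex I, chosen for mention after their values were seen, were Ndufs8 and Ndufb9, higher, and Ndufs3, Ndufa6, Ndufb10 and Ndufv3, lower, each by less than 0.19 log2. The call of Ndufv3 (-0.12) was lost under 14 of 37 alternatives, over all of which it ran from -0.07 to -0.14.

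Complex II, succinate dehydrogenase, split between its subunits. Sdhd, which anchors the enzyme in the membrane (chromosome 9, 50596357 to 50603812), had 2367, 2501 and 2729 in Liver Treg against 1987, 2254 and 2161 in Liver Tconv. In LDLN it was 2220, 2107 and 2037 against 1985, 1993 and 1989, and in spleen 2167, 2154 and 2057 against 1987, 1961 and 2040. These 3 tissues did not overlap, and PBMC did, at 2139, 1818 and 2177 against 1779, 2128 and 1796. Sdhd rose by 0.13 ± 0.042 log2 on average (adjusted p = 0.0141) and by 0.25 ± 0.084 in liver (adjusted p = 0.0413). Sdhb, the iron-sulfur subunit, rose by 0.15 ± 0.0487 (adjusted p = 0.0184) and in liver, where its counts were 2944, 3653 and 3626 against 2948, 2720 and 2678, by 0.29 ± 0.0973 (adjusted p = 0.0402). Without the 5 Tconv libraries with raised Foxp3 both averaged calls were lost (Sdhd 0.11, adjusted p = 0.16, and Sdhb 0.14, adjusted p = 0.12). With the pool number as a block within tissue neither liver call passed (Sdhd adjusted p = 0.0693, Sdhb adjusted p = 0.0688). The liver calls were also lost without Liver Tconv 3, Liver Treg 2 or Liver Treg 3, and for Sdhd without Liver Tconv 1 and for Sdhb without Liver Tconv 2, at values of 0.19 to 0.26 for Sdhd and 0.23 to 0.27 for Sdhb.

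The other subunits of complex II did not pass. Sdhc, the second membrane anchor, was at -0.05, and Sdha, the flavoprotein that oxidises succinate, at -0.02. Sdha stood high in single pools: 8630 in PBMC Treg 1 against 5384 and 5407 in the other PBMC Treg, and 10328 in Spleen Tconv 1 against 6131 and 6247. In spleen Treg it was 7183, 5710 and 5628. In these groups the first pool stood above the other two, and the groups overlapped.

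In complex III 2 of the 8 nuclear genes were higher in Treg and none lower (the same counts without the 5 Tconv libraries with raised Foxp3), while mt-Cytb, their mitochondrial partner, was lower. Uqcr11, the smallest subunit (chromosome 10, 80402997 to 80406830), had 1186, 1271 and 1032 in LDLN Treg against 977.2, 989.7 and 937.3 in LDLN Tconv. In spleen it had 1026, 1041 and 966.7 against 841.1, 817.3 and 777.8. Treg lay above Tconv in both. In liver (915.9, 1097 and 1077 against 944.5, 788.5 and 780.6) and PBMC (1042, 968.6 and 1039 against 715.7, 1043 and 650.8) 1 Tconv library reached the Treg range. Uqcr11 rose by 0.31 ± 0.0644 log2 (adjusted p = 0.000468), the largest averaged increase among the 91 genes in this fit. In PBMC it was called at 0.37 ± 0.129 (adjusted p = 0.05), and that call was lost without any PBMC library other than PBMC Tconv 2.

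Uqcrc1, a core subunit of the matrix side, rose by 0.21 ± 0.0645 (adjusted p = 0.0134). Among single tissues it passed in spleen, with 5835, 5464 and 5227 in Treg against 4121, 3430 and 4213 in Tconv (0.49 ± 0.129, adjusted p = 0.0091), and it lost the spleen call without Spleen Tconv 2 (0.40, adjusted p = 0.053). In liver the difference was 0.24 and in PBMC 0.22, and neither passed. In LDLN Uqcrc1 stood at 3083, 2558 and 3227 in Treg against 3462, 3090 and 3129 in Tconv, with the libraries overlapping and a difference of -0.13. Whether the differences of Uqcrc1 in the 4 tissues differ from each other was not tested. Uqcrfs1, the Rieske protein, varied widely between pools of a group, for example 412.5, 923.8 and 1046 in LDLN Treg and 1350, 396.4 and 1694 in PBMC Tconv, and was chosen for mention after its values were seen.

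In complex IV the clearest difference of a nuclear subunit gene was that of Cox7a2l (chromosome 17, 83501918 to 83517330). It had 5265, 5908 and 6245 in Liver Treg against 6961, 6779 and 8418 in Liver Tconv. In LDLN it had 5441, 5951 and 5903 against 6574, 6436 and 6523, in PBMC 5636, 5518 and 5640 against 7010, 8581 and 7339, and in spleen 5083, 5291 and 5411 against 6374, 6752 and 7232. All 12 Treg libraries lay below all 12 Tconv libraries. The averaged difference was -0.33 ± 0.0443 log2, a fold of 0.794 (adjusted p = 2.43e-06), and it passed in all 37 alternatives, at -0.29 to -0.35. In single tissues it passed in liver (-0.34 ± 0.0885, adjusted p = 0.00748), PBMC (-0.44 ± 0.0885, adjusted p = 0.000974) and spleen (-0.37 ± 0.0885, adjusted p = 0.00539). The liver call was lost without Liver Tconv 3 (-0.25) or Liver Treg 1 (-0.28), and without the Tconv libraries with raised Foxp3 (-0.23).

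Cox7a2, the paralog of Cox7a2l that sits in the usual complex IV, was at 0.01 (adjusted p = 0.96) and differed by 0.08 or less in any tissue. Cox6b1, the ubiquitous subunit on the intermembrane side, rose by 0.20 ± 0.0561 (adjusted p = 0.00576), with 2205, 2623 and 2546 in Liver Treg against 2120, 1937 and 1904 in Liver Tconv, which did not overlap. Cox4i1 (-0.07), Cox6a1 (-0.07), Cox8a (0.10), Ndufa4 (0.05) and Cox6b2 (0.14) did not pass. Of the 13 nuclear genes of complex IV other than Cox6a2, 1 was called higher and 1 lower, Cox7a2l. The number called was the same without the 5 Tconv libraries with raised Foxp3.

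**Figure D4:**
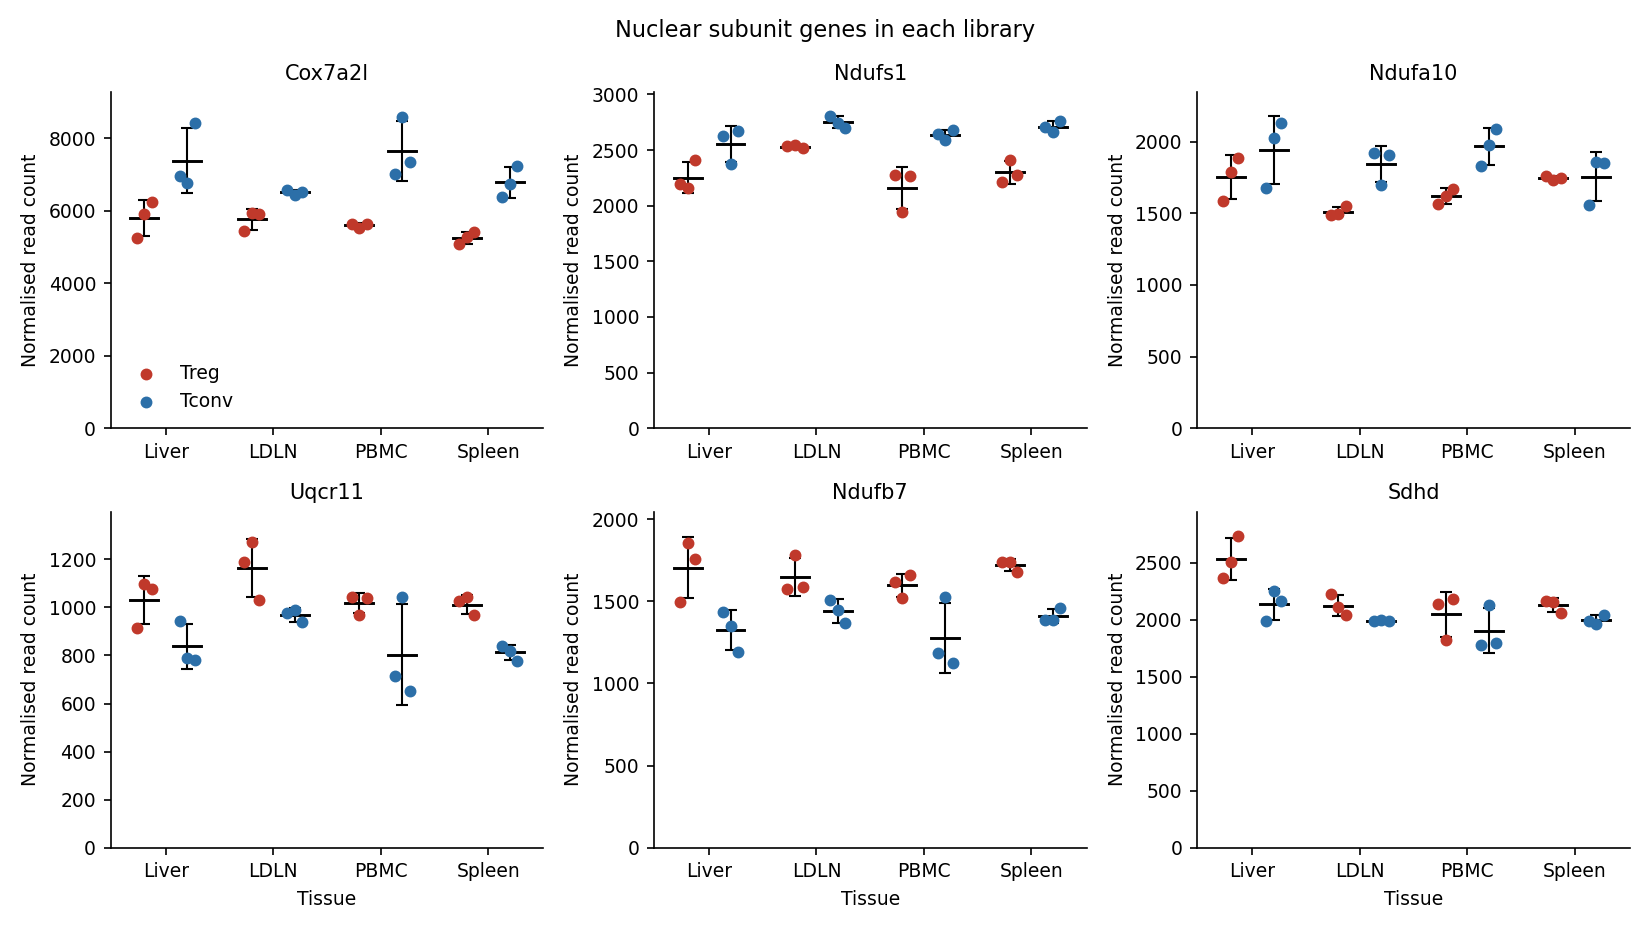
Normalised read counts per library of Cox7a2l, Ndufs1 and Ndufa10 (top row) and Uqcr11, Ndufb7 and Sdhd (bottom row) by tissue. Points are libraries (red Treg, blue Tconv) and bars are means ± SD, n = 3. Treg lie below Tconv in every tissue for Cox7a2l, and above Tconv in LDLN and spleen for the bottom row.

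Complex V gave few calls. Of its 17 nuclear genes 1 rose and 2 fell on average, and without the 5 Tconv libraries with raised Foxp3 none and 1. Atp5d, the delta subunit of the central stalk, rose by 0.18 ± 0.0644 (adjusted p = 0.0262). In spleen its counts were 3743, 3498 and 3284 in Treg against 2340, 2939 and 2581 in Tconv, without overlap (0.43 ± 0.129, adjusted p = 0.0234), whereas in LDLN they were 2231, 2228 and 2449 against 2458, 2087 and 2190 (0.04). The averaged call of Atp5d was lost without Liver Tconv 1, Liver Treg 3 or PBMC Treg 3 (0.15 to 0.16) and without the 5 Tconv libraries with raised Foxp3 (0.13, adjusted p = 0.26). The spleen call was lost without Spleen Tconv 1, Spleen Tconv 3, Spleen Treg 1 or Spleen Treg 2 (0.35 to 0.43), and without the Tconv libraries with raised Foxp3 (0.42). The genes that fell, Atp5f1 and Atp5h of the peripheral stalk (both -0.14), were chosen for mention after their values were seen. The c subunit, which forms the rotor ring and is encoded by 3 genes with the same mature protein, did not pass for any of them: Atp5g1 was at -0.08, Atp5g2 at 0.02 and Atp5g3 at 0.00.

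The starts of the nuclear genes were searched for short motifs, and the shares are set beside those of all genes. RefSeq gives the promoter (250 bases before to 50 after a start, GRCm38.p6) of 65 of the 79 nuclear genes. On either strand, 20 of the 65 (30.77%) held the NRF1 motif GCGCANGCG, against 7.034% of 27025 genes with a promoter in the table. The ETS motif CCGGAAG was in 16 (24.62%, against 9.928%), the YY1 motif AAGATGGCG in 7 (10.77%, against 1.639%), CCAAT in 28 (43.08%, against 41.06%) and TATAAA in 5 (7.692%, against 15.67%). NRF1, and GABP of the ETS family, are textbook regulators of nuclear respiratory genes, and these counts describe letters in a window and no binding.

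The bases just upstream of 4 genes are shown, for Uqcr11, Sdhd and Cox7a2l because they were called and for Cox6a1, which was not, as an example of the NRF1 letters. They are given 5′ to 3′ on the gene's strand (minus in each case), from the RefSeq promoters at chr10:80406831-80406941 (Uqcr11), chr9:50603850-50603909 (Sdhd), chr5:115348982-115349078 (Cox6a1) and chr17:83514334-83514453 (Cox7a2l), without bases that GENCODE annotates as exon. The RefSeq start used for Cox7a2l lies within the GENCODE gene. Capitals mark the ETS motif CCGGAAG or its complement CTTCCGG in Uqcr11 and Sdhd and the NRF1 motif in Cox6a1.
Uqcr11: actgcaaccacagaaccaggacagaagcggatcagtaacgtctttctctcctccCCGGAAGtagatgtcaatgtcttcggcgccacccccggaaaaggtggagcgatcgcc
Sdhd: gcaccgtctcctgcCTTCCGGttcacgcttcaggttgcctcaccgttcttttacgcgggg
Cox6a1: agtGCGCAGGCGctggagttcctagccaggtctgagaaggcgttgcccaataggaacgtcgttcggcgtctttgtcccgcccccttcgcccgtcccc
Cox7a2l: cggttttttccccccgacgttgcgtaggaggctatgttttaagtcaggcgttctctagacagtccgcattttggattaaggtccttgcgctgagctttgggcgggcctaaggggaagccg
Uqcr11 and Sdhd, both higher in Treg, held the ETS letters here, and Cox7a2l, lower in Treg, held none of the NRF1, ETS or YY1 letters. Ndufa10, lower in Treg, and Ndufa13 and Atp5d, higher in Treg, held none of these 3 motifs in their promoters either. The ETS letters were also in the promoters of Ndufb7, Ndufs8, Sdhb and Cox6b1, called higher, and of Ndufs3 and Atp5h, called lower. NRF1 letters were in the promoters of Uqcr11 and Sdhd, outside the stretches shown, and of Uqcrc1, which was called higher and held no ETS letters. Among genes called lower, Ndufa6, Ndufb10 and Atp5h held NRF1 letters. Whether these letters go with the direction of the difference was not tested.

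Cox6a2 stood apart from the other 90 genes in size of difference and in how little was counted. It encodes the heart and muscle isoform of complex IV subunit VIa (chromosome 7, 128205435 to 128206387) and lies within Itgad. Its normalised counts were 10.6, 25.2 and 37.5 in Liver Treg and 28.7, 130.6 and 78.8 in Liver Tconv. They were 0, 0 and 0 in LDLN Treg and 4.06, 3.51 and 2.01 in LDLN Tconv, 0, 2.02 and 10.3 in PBMC Treg and 25.7, 54.8 and 19.4 in PBMC Tconv, and 5.37, 0 and 1.82 in Spleen Treg and 2.89, 8.16 and 8.70 in Spleen Tconv. Tconv lay above Treg without overlap in LDLN and PBMC, and the liver libraries of either cell type were the highest of that type except that Liver Tconv 1 lay within the PBMC Tconv range.

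Since Cox6a2 entered through its liver and Tconv libraries, where it is high, its differences are given with no test. On the log2(value + 1) scale it differed by -2.08 between Treg and Tconv on average, by -3.27 in PBMC, and between liver and the mean of LDLN, PBMC and spleen by 3.48 in Treg and 2.81 in Tconv. These values depend on the pseudocount, and the Treg liver difference ran from 1.46 to 5.41 over the alternatives.

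Siglech, a surface marker of plasmacytoid dendritic cells, was also high in liver and in PBMC Tconv, and was picked for this from 5 dendritic cell markers after its values were seen. It was 207.5, 487.8 and 571.1 in Liver Treg, 411.9, 1606 and 822.5 in Liver Tconv, 372.4, 557.7 and 412.4 in PBMC Tconv and 42.4 to 151.3 in the other Treg libraries. Its log2 difference between liver and the other tissues was 2.53 in Treg and 2.44 in Tconv, and between Treg and Tconv -2.10 in PBMC. The other markers of the list did not all go the same way: in PBMC Itgax was at 1.26, Xcr1 at 0.03, Flt3 at -0.18 and Clec9a at -1.41 (Treg minus Tconv), and in liver Treg Clec9a was at 2.25, Itgax at 1.21, Flt3 at 0.48 and Xcr1 at 0.115 against the other tissues. The cells of all libraries had been sorted as TCRβ+ and CD4+. The 5 markers, none at 0 in any group, summed to 640 to 970 in Liver Treg, 769 to 2305 in Liver Tconv, 317 to 348 in LDLN Treg and 702 to 934 in PBMC Tconv. The part of dendritic cells in the Cox6a2 counts was not tested.

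**Figure D5:**
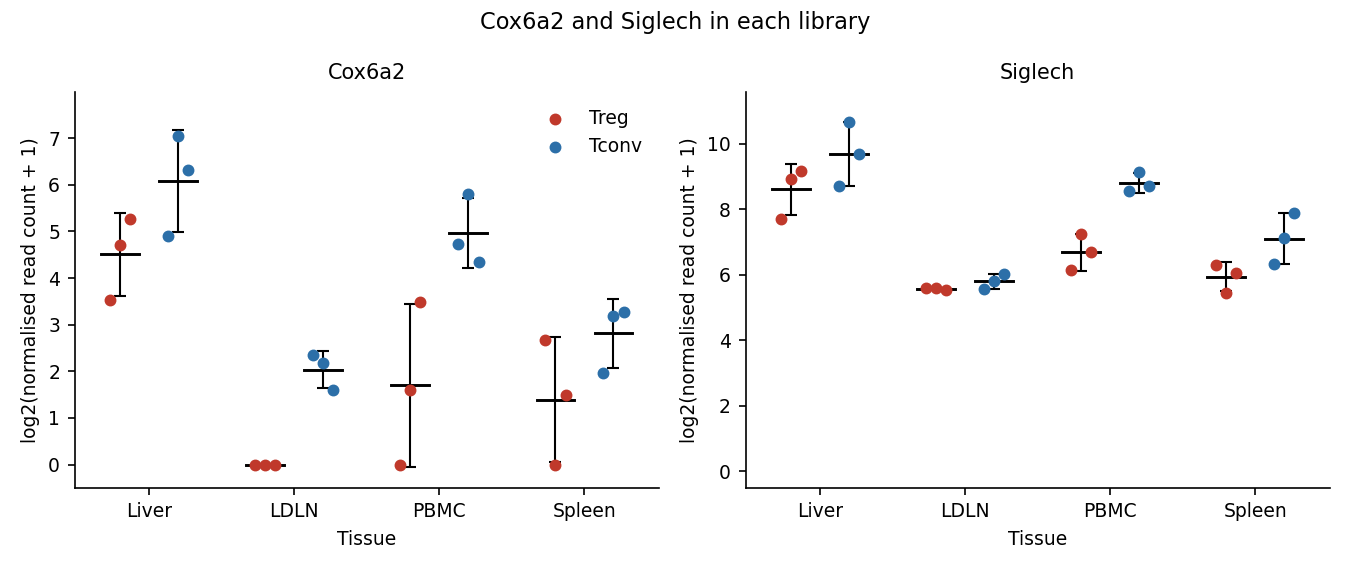
Cox6a2 (left) and Siglech (right) as log2(normalised read count + 1) per library by tissue. Points are libraries (red Treg, blue Tconv) and bars are means ± SD, n = 3. By group mean both are highest in liver and PBMC Tconv and lowest in LDLN Treg, where Cox6a2 is 0 in all 3 libraries.

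Liver was compared with the mean of the lymphoid sources LDLN, PBMC and spleen within each cell type. In Treg 8 of the 91 genes passed, 4 higher and 4 lower in liver, where 19.7% of all genes passed, 9.66% higher and 10.1% lower. In Tconv 1 passed, higher in liver, where 3.18% of all genes passed, 2.58% higher. Cox6a2, which is a member through its liver values, is that 1 gene and 1 of the 4 higher in Treg, so that of the other 90 genes 7 passed in Treg and 0 in Tconv. None of the 12 mitochondrial genes passed in either cell type, and their median differences were -0.01 in Treg and 0.03 in Tconv. Under quantile scaling 2 of them were called lower in Liver Treg, with a median of -0.12. Without the 5 Tconv libraries with raised Foxp3, 5 genes were called in Treg and 1 in Tconv. Leaving out Liver Treg 2 or Liver Treg 3 left 3 calls in Treg, and leaving out PBMC Treg 3 or Spleen Treg 2 left 5. In Tconv the count was 0 without Liver Tconv 2 or Liver Tconv 3, and 2 without Liver Tconv 1 or PBMC Tconv 2.

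Sdhd was the nuclear gene of complex II that was higher in Liver Treg (0.27 ± 0.0686, adjusted p = 0.00767). Its lowest liver count, 2367, lay above the highest of the 9 other Treg libraries, 2220. It passed against LDLN, PBMC and spleen singly as well, at 0.25, 0.31 and 0.25, and without Liver Treg 3 the difference was 0.22 (adjusted p = 0.062). In Tconv the difference of Sdhd was 0.12 (adjusted p = 0.47).

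Complex IV genes leaned to higher values in liver. Cox8a, the ubiquitous small subunit VIII, had 1538, 1849 and 1783 in Liver Treg and 1108 to 1437 in the 9 other Treg libraries, with no overlap (0.40 ± 0.125, adjusted p = 0.0278, lost without Liver Treg 2 at 0.35 or Liver Treg 3 at 0.37). Of the 14 nuclear complex IV genes 13 had a positive difference in Treg and 13 in Tconv, with medians of 0.19 and 0.10 against 0.03 and 0.01 over all genes. Without Cox6a2 it was 12 of 13 in either, with medians of 0.18 and 0.09, and of these Cox8a passed in Treg and none in Tconv. Scaled to the total of all genes 12 of the 14 were positive in Treg, and without the Tconv libraries with raised Foxp3 10 were positive in Tconv. Against LDLN, PBMC and spleen singly, 10, 12 and 12 of the 13 without Cox6a2 were positive in Treg and 7, 11 and 13 in Tconv. The share of all genes with a positive difference is not given, so the lean cannot be called particular to complex IV. The liver libraries stood above all 9 others in Treg for 6 of the 79 nuclear genes and below for none, and in Tconv for none. Cox6a2 is 1 of the 6, but it is a member through its liver values and so does not count as support. The others were Ndufv3, Sdhd, Cox6a1, Cox8a and Atp5l, the last outside the naming rule. Of all genes 7.22% in Treg and 1.52% in Tconv did not overlap, and liver was the higher for 4.32% and 1.07% of all genes.

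Grouped by symbol, the genes lower in Liver Treg fell in complexes I and V. Atp5s, placed in complex V here, is named Dmac2l in the RefSeq promoters. Ndufb2, an accessory subunit of the membrane arm, had 167.0, 145.1 and 144.9 in Liver Treg against 281.7, 253.4 and 248.5 in LDLN Treg, 215.6, 218.9 and 214.1 in PBMC Treg and 169.0, 154.3 and 192.4 in Spleen Treg. Liver and spleen overlapped, and liver lay below LDLN and PBMC. The difference was -0.48 ± 0.111 (adjusted p = 0.00381) and passed in all 25 alternatives. Atp5g1, one of the c subunit genes, had 899.5, 898.0 and 1026 in Liver Treg against 1351, 1378 and 1323 in LDLN Treg (-0.31 ± 0.0898, adjusted p = 0.0199, lost without Liver Treg 1 or Liver Treg 2 at -0.27). Atp5s (-0.42 ± 0.142, adjusted p = 0.0399) and Ndufb4 (-0.24 ± 0.0827, adjusted p = 0.0475) lost their calls without any of 7 and of 10 of the 12 Treg libraries, and Ndufv3, higher in liver (0.20 ± 0.0708, adjusted p = 0.0467), without any of 9.

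Against single tissues, Liver Treg differed from LDLN Treg in 11 of the 91 genes (5 higher, 6 lower), where 30.1% of all genes passed, from PBMC Treg in 8 (7 and 1), where 14.4% passed, and from Spleen Treg in 4 (2 and 2), where 18.8% passed. Cox6a2 was 1 of those higher in each, and without it the counts were 10, 7 and 3. The 5 Tconv libraries with raised Foxp3 enter the shared error, and without them the 91 genes gave 9, 4 and 3. Uqcrc1 was higher in Liver than in LDLN Treg (0.47 ± 0.129, adjusted p = 0.00834) and lower than in Spleen Treg (-0.43 ± 0.129, adjusted p = 0.0221). mt-Cytb was the only mitochondrial gene called in any of these, lower in Liver than in LDLN Treg (-0.34 ± 0.118, adjusted p = 0.0342), with 62623, 56724 and 56530 against 78813, 77245 and 66831. The PBMC contrast gave higher calls in liver in complexes I to V, among them Ndufa9 (0.26), Uqcrh (0.30), Cox6b1 (0.34) and Atp5g3 (0.38). In Tconv the counts were 2 against LDLN (11.5% of all genes), 0 against PBMC (4.77%) and 1 against spleen (7.88%), and without Cox6a2 1, 0 and 0. For the 91 genes they were 1, 0 and 1 without the 5 Tconv libraries. These contrasts share the liver libraries.

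The liver difference in Treg minus that in Tconv was tested directly. None of the 91 genes passed, where 0.748% of all genes did (limma, edgeR and DESeq2 each called none of the 91). At an unadjusted p of 0.05, limma gave 1 gene. The larger number of calls in Treg than in Tconv is therefore no difference shown between the cell types for any single gene.

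Among LDLN, PBMC and spleen, without Cox6a2, the subunit genes differed in Treg for 12 of 90 (limma F-test), where 38.8% of all genes passed. In Tconv they differed for 1, Ndufs3, where 27.4% passed. These counts were 10 and 1 without the 5 Tconv libraries. Uqcrc1 showed the smallest adjusted p (3.67e-05), with Treg levels 0.62 higher in PBMC and 0.90 higher in spleen than in LDLN on the log2 scale. Atp5d was 0.61 higher in spleen than in LDLN, and Ndufb2 0.60 lower (-0.60). The 3 genes of the c subunit all passed in Treg, and all were lower in PBMC than in LDLN: Atp5g1 by -0.48, Atp5g2 by -0.41 and Atp5g3 by -0.22. Atp5g2 has 2 copies elsewhere in the genome whose means add up to 18.3% of its own, so its value is uncertain. No mitochondrial gene passed.

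Between pools of 1 group the subunit genes varied little. The residual SD on the log2 scale had a median of 0.139 over the 91 genes (0.135 nuclear, 0.151 mitochondrial) against 0.268 over all genes tested. The genes tested were not matched to the 91 for level, so the smaller spread cannot be called particular to subunit genes. The widest were Cox6a2 (1.01), Cox6b2 (0.729) and Uqcrfs1 (0.60), and the widest mitochondrial gene was mt-Nd3 (0.237). Of the 79 nuclear genes 12 had a near-identical copy in the annotation, and in 4 the copies added up to over 5% of the gene's own mean. The strongest case was Ndufb4c, a processed copy with a mean of 57.9 that matches Ndufb4 (552.5) over all its 390 bases. For the mitochondrial genes the copies in nuclear DNA had means of at most 42.0.

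In the lists of genes that express, build or regulate the complexes, most calls of the averaged comparison were lower in Treg (of all genes 19.7% were called higher and 19.9% lower). Of 12 genes of mitochondrial transcription and replication 7 were lower and none higher (median -0.19), among them Top1mt, the mitochondrial topoisomerase (-0.57 ± 0.0761, adjusted p = 2.82e-06), Tfb2m, a transcription factor of mitochondrial promoters (-0.29 ± 0.0668, adjusted p = 0.00131), and Polg2, the accessory subunit of the mitochondrial DNA polymerase (-0.29 ± 0.0578, adjusted p = 0.00036). Of 16 genes of mitochondrial RNA stability and processing 7 were lower and none higher (median -0.14), led by Fastkd1 (-0.46), Fastkd2 (-0.45) and Ptcd3 (-0.39 ± 0.0449, adjusted p = 2.75e-07).

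Assembly factors gave 1 higher and 5 lower of 16 for complex I (Acad9 at 0.20, Tmem186 at -0.48, Ndufaf4 at -0.36 and Dmac1 at -0.34), 1 and 1 of 4 for complex II (Sdhaf1 at 0.79 ± 0.183, adjusted p = 0.00136, and Sdhaf3 at -0.41), none and 3 of 6 for complex III (Lyrm7 at -0.77 ± 0.0944, adjusted p = 7.94e-07, Bcs1l at -0.40 and Uqcc1 at -0.24), 1 and 5 of 20 for complex IV (Surf1 at 0.21, Cox10 at -0.55 ± 0.0499, adjusted p = 1.01e-08, Coa7 at -0.35 and Cox16 at -0.32) and none and 1 of 3 for complex V (Atpaf2 at -0.27). Cox10, which makes the heme A precursor of complex IV, was lower with the smallest adjusted p among these lists. Of 10 regulators Myc (0.46) and Gabpb1 (0.32), a subunit of GABP, were higher and the coactivators Pprc1 (-0.55) and Ppargc1b (-0.29) lower. Of 15 genes of the citric acid cycle 1 was higher (Idh3a, 0.17) and 4 lower, among them Suclg1 (-0.31), Pdhb (-0.30) and Dlst (-0.19), and of 14 genes of mitochondrial mass and import Timm23 (-0.24) and Vdac2 (-0.13) were lower. The subunits and carriers that the naming pattern leaves out, Cyc1, Ndufab1 and Cycs, did not pass. Without the 5 Tconv libraries with raised Foxp3 the counts of these lists were the same except for 5 lower in transcription and replication, 6 lower in RNA stability and processing, and none higher and 3 lower in the citric acid cycle.

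In Liver Treg against the lymphoid tissues (19.7% of all genes called) the same lists held single large differences. Polg2 was higher by 1.77 ± 0.0944 (adjusted p = 1.11e-10) and in Tconv by 1.37, Idh3a, which makes part of the NADH that complex I uses, was higher by 0.62 ± 0.0642 (adjusted p = 1.35e-06), and Ppargc1a, a coactivator of mitochondrial genes, by 1.22 ± 0.32 (adjusted p = 0.00972). Lrpprc, which stabilises mitochondrial messenger RNAs, was lower by 0.47 (-0.47 ± 0.065, adjusted p = 3.28e-05), Fastkd2 was at -0.65 and Myc at -0.89. The mitochondrial messenger RNAs themselves did not pass in that comparison.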

How the data were processed

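Expression was measured by bulk RNA-seq in 24 libraries. The authors deposited 1 normalised count signal per gene and library. The build was GRCm38, and HTSeq 0.6.1p1, SAMtools 0.1.19, TopHat2 2.0.11, Trimmomatic 0.32 and Bowtie2 2.2.2 are named, per the submitters' processing notes; the strand setting and the scaling are not given in the sources used here. Every value was a whole multiple of 1 step per library, and dividing by it recovered whole reads for 100% of values within 0.001. Symbols (34645 of 35612 identifiers) and coordinates came from GENCODE M21. From these values, limma 3.58.1 in R 4.3.3 was fitted to log2(value + 1) of 18576 genes with at least 10 in at least 3 libraries, as 8 groups with a variance trend. P-values were adjusted over all genes tested and calls made at 0.05. A fold on this scale understates changes of low genes. The fit was tested on simulated data. Alternatives were edgeR 4.0.16 and DESeq2 1.42.0 on the recovered reads, a filter at 50 or none, pseudocounts of 10 and 0.1, other scalings, other fits and each library left out; leaving out Tconv libraries with Foxp3 above 100 was added after the data were seen. Copies were found with BLAST 2.17.0. Named genes were the mitochondrial, Sdh, c subunit and isoform genes, the extremes of each complex, and per comparison up to 6 called nuclear genes in each direction and up to 3 per pathway list. Members and lists were chosen with earlier results of these data known. As a check of pairing, deviations of same-numbered Treg and Tconv pools correlated at 0.102 to 0.385 in liver and 0.122 to 0.310 in LDLN. They correlated at 0.0822 to 0.252 in PBMC and 0.0707 to 0.416 in spleen. Counts without Cox6a2, and those of complexes, single tissues and lists without the Tconv libraries with raised Foxp3, were added after seeing the data.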

Additional observations from a re-analysis of the deposited data

How the results depend on the processing

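The counts of subunit genes called stayed within 1.5 times of the values given, except as follows, and no named call reversed its direction. For Treg against Tconv in liver (4 called) the count was 7 with DESeq2 and when scaled to all or to nuclear totals, 2 without the filter, without the variance trend or with the replicate block within tissue, 1 with only the groups compared and 0 without the Tconv libraries with Foxp3 above 100. In LDLN (1) it was 2 with DESeq2 or a pseudocount of 0.1, 4 with only the groups compared, and 0 without the filter, without the trend, under either total scaling and without those Tconv libraries. In PBMC (7) it was 4 without the filter and 2 with only the groups compared. In spleen (6) it was 3 without the filter, with only the groups compared or without those Tconv libraries, and 10 scaled to all genes. Averaged (29), it was 18 without those libraries. For liver against lymphoid tissues in Treg (8) it was 5 without the filter or those libraries, and in Tconv (1) 0 with a pseudocount of 0.1 and 2 with the replicate block. The split of higher and lower calls moved under scaling to all genes to 8 and 2 in spleen and 6 and 1 in liver. The cause was not tested.

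Leaving out 1 library gave 1 to 5 in liver, 0 to 1 in LDLN, 3 to 9 in PBMC, 2 to 5 in spleen, 22 to 34 averaged, 3 to 8 and 0 to 2 for liver against lymphoid tissues in Treg and Tconv, and 0 to 0 for their difference. With the replicate block the counts were 5, 1, 8, 9 and 31 for liver, LDLN, PBMC, spleen and the average. In every tissue the samples are known to share only a number, and 8 of 12 pools correlated best with their own number. Each had 3 Tconv pools to match, and all 12 same-number correlations were positive (0.0707 to 0.416). The main fit does not use the pool number. Depth limits Cox6a2 and Cox6b2, which held under 10 normalised reads in many libraries.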
